A study of Sus scrofa with 9 samples.

Results

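The genes described here build, trim and remove the sugar chains of proteins and lipids in pig kidney grafts, with weight on the chains' terminal sugar, sialic acid. They were chosen by gene symbol, with earlier results of these data known. A gene was taken if the array annotation gave a probe set that single symbol and the symbol began with ST3GAL, ST6GAL, ST8SIA, B4GALT, B3GALT, B3GNT, MGAT or GALNT, was FUT or NEU followed by a digit, or was SIAE. This gave 61 of the 12362 genes named by a single symbol, and each of the 61 had 1 probe set. The sialyltransferase ST6GAL1 had no probe set with a single symbol and was not analysed here.

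Gene expression was measured in kidney biopsies from 9 male Yorkshire pigs of 30 kg, with 1 Affymetrix array for each biopsy; ages were not in the sources used here. In all animals the right kidney underwent 30 min of warm ischemia, was removed, flushed and returned to the same animal, and the contralateral kidney was then taken out. The 3 animals of the No Storage group had the kidney put back at once. The 3 animals of the SCS group received it after 8 h of static cold storage, and the 3 animals of the NEVKP group after 8 h of normothermic ex vivo perfusion, a circuit that holds the kidney near body temperature while fluid is pumped through its vessels. Biopsies were taken on day 3 after surgery. All 3 groups share the warm ischemia and the surgery, no kidney without them is among the groups, and an autograft meets no foreign immune system. The comparisons ask how the 2 ways of preserving a kidney for 8 h differ from immediate reimplantation and from each other.

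Sugar chains are assembled mostly in the endoplasmic reticulum and Golgi apparatus by glycosyltransferases, each adding 1 kind of sugar from an activated donor in 1 kind of linkage. N-glycans on asparagine are trimmed and then branched by the MGAT enzymes, GALNT enzymes place the first sugar of mucin-type O-glycans on serine or threonine, and galactosyltransferases and N-acetylglucosaminyltransferases lengthen both. Sialyltransferases and fucosyltransferases cap the chains. In the kidney, sialic acid on podocyte surface proteins carries much of the negative charge of the filtration barrier, tubule uptake receptors are heavily glycosylated, and sialylated and fucosylated chains are the ligands to which selectins bind when leukocytes enter an inflamed tissue. Sialidases and the esterase SIAE act in the opposite direction, on chains already made.

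The values are log2 intensities after robust multi-array averaging (RMA), so a difference of 1 is a 2-fold change, and levels of different genes are not compared because they come from different probes. Array medians lay between 5.705 and 5.797, and the correlation of any 2 arrays over all 19124 probe sets was between 0.974 and 0.991. Of the 61 genes, 52 were above the mean level of 3.92 that bounds the dimmest 25% of probe sets. The 9 dim ones were ST6GALNAC1, ST8SIA3, ST8SIA6, B3GALT5, B3GNT4, MGAT4C, MGAT4D, GALNT8 and GALNTL5. Of kidney markers, all 13 measured proximal tubule genes, all 8 of the thick limb and distal tubule and all 7 of the podocyte lay above that level. Of the 15 collecting duct genes 1 was dim. Most probe sets lie above that level by its definition, so it is a weak sign of expression. Differences were tested with limma over all probe sets, with Benjamini-Hochberg adjustment and a threshold of 0.05, and the array values below are given in the order of replicates 1, 2 and 3.

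After static cold storage, 2 of the 61 genes fell relative to No Storage and none rose at an adjusted p under 0.05 in limma. Both code for enzymes at ends of the pathway: SIAE, which removes O-acetyl groups from sialic acid, and GALNT11, which starts O-glycans and is known to modify the uptake receptor megalin in kidney tubules. Of all probe sets, 0.0941% passed as lower and 0.0680% as higher in that comparison, 0.162% in all. In the comparison of NEVKP with No Storage 0 of the 61 passed, and 0% of all probe sets did. NEVKP against SCS likewise gave 0 of 61, with 0% of all probe sets passing. The moderated F test among the 3 groups called 0 of the 61 genes, against 0.00523% of all probe sets. By that F test 13 of the 61 (21.3%) had an unadjusted p under 0.05, against 12.8% of all probe sets.

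At an unadjusted p under 0.05, SCS against No Storage gave 8 lower genes (13.1% of the 61, against 7.79% of all probe sets) and 4 higher ones (6.56%, against 7.75%), or 19.7% against 15.5% in either direction. NEVKP against No Storage gave 6 lower (9.84%, against 4.40%) and 4 higher (6.56%, against 4.67%), or 16.4% against 9.07% in either direction. NEVKP against SCS gave 7 higher (11.5%, against 3.80%) and 3 lower (4.92%, against 3.70%), or 16.4% against 7.50% in either direction. Arrays of SCS and No Storage did not overlap for 19 of the 61 genes (31.1%, against 22.9% of all probe sets), 14 of them lower in SCS (23.0%, against 11.6%) and 5 higher (8.20%, against 11.3%). For NEVKP and No Storage there were 12 such genes (19.7%, against 16.5%), 7 lower (11.5%, against 8.57%) and 5 higher (8.20%, against 7.94%). Between NEVKP and SCS there were 11 such genes (18.0%, against 11.8%), 7 lower (11.5%, against 6.78%) and 4 higher (6.56%, against 5.01%). Most of the genes differed little: 43 of the 61 (70.5%) differed by less than 0.25 between SCS and No Storage, and so did 67.2% of all probe sets. The same held for 45 genes (73.8%, against 74.2%) in NEVKP against No Storage and for 41 genes (67.2%, against 75.8%) in NEVKP against SCS. The median difference of the 61 genes was -0.03, -0.02 and 0.06 in these 3 comparisons, beside 0.01, -0.01 and -0.02 for all probe sets. Every comparison shares a group of arrays with each of the others, so they are not separate tests of a pattern. Because the genes were chosen with earlier results of these data known, their shares beside those of all probe sets are descriptive only.

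**Figure D1:**
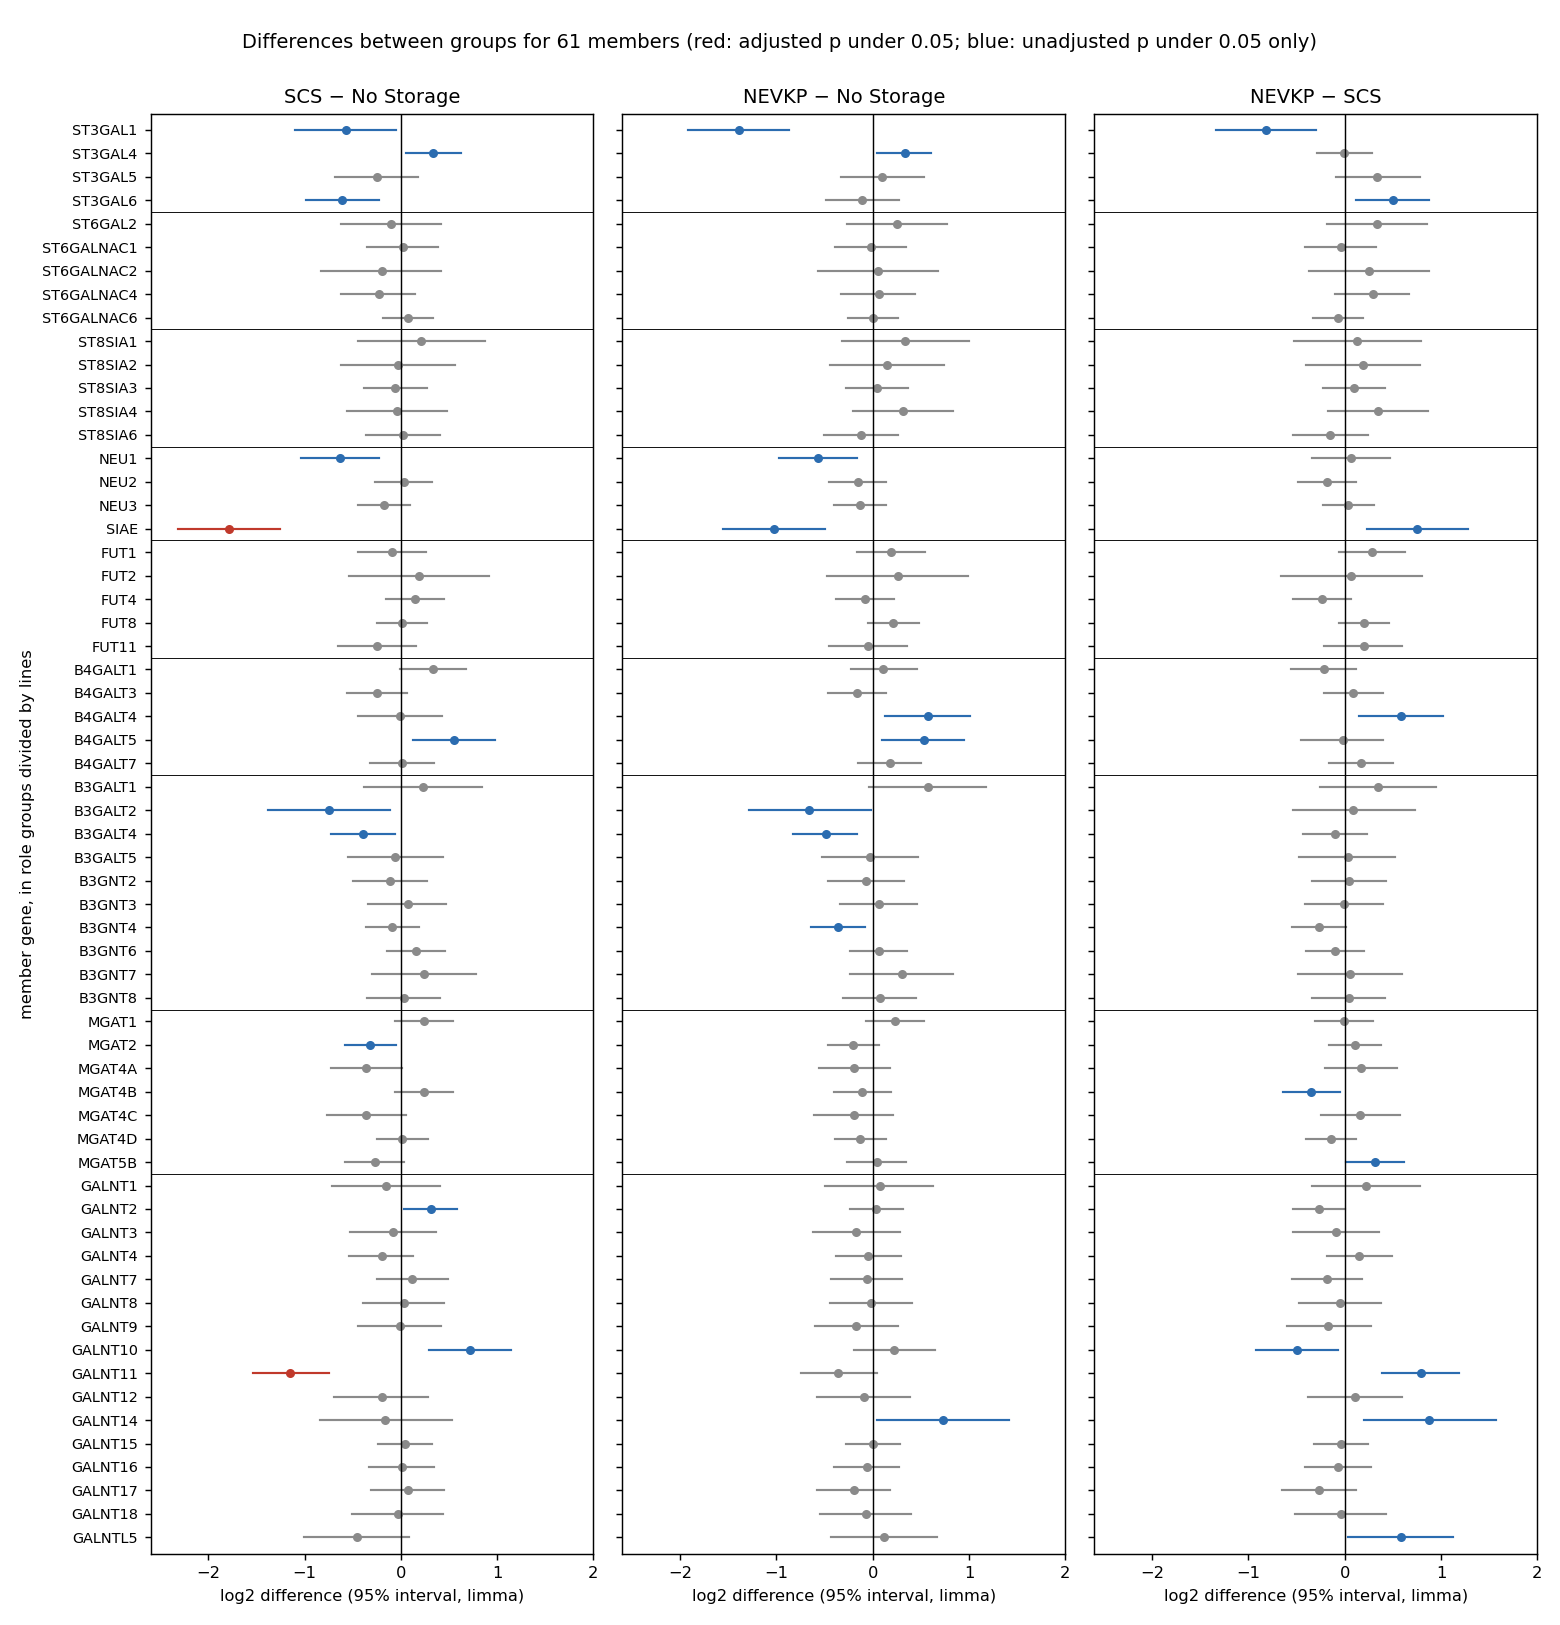
Log2 difference of each of the 61 genes in the 3 comparisons, with 95% confidence intervals from limma and the genes ordered by enzyme group. Red marks SIAE and GALNT11 in SCS against No Storage, which were past an adjusted p of 0.05, and blue marks genes past an unadjusted p of 0.05 only. The other intervals include 0.

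SIAE read 8.88, 8.58 and 8.90 in the No Storage arrays. In the SCS arrays it read 6.83, 6.57 and 7.61, and in the NEVKP arrays 7.90, 7.77 and 7.60. Every SCS and every NEVKP array lay below every No Storage array, while SCS and NEVKP overlapped through the third SCS array. The group means were 8.79 ± 0.18 (SD, n = 3), 7.00 ± 0.54 and 7.76 ± 0.15 for No Storage, SCS and NEVKP. SIAE fell by 1.78 on the log2 scale (SE 0.24), or 3.45-fold, in SCS against No Storage (limma adjusted p = 0.0402, 95% interval -2.31 to -1.26). In NEVKP against No Storage it differed by -1.03, or 2.04-fold lower, and did not pass (limma adjusted p = 0.345, interval -1.56 to -0.50). NEVKP lay above SCS by 0.75, which did not pass either (limma adjusted p = 0.599).

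GALNT11 read 10.07, 9.53 and 10.11 in No Storage. Its SCS arrays read 8.67, 8.73 and 8.86, and its NEVKP arrays 9.67, 9.29 and 9.67. The 3 SCS arrays were lower than all arrays of both other groups, whose ranges overlapped each other. The means were 9.90 ± 0.32, 8.75 ± 0.10 and 9.54 ± 0.22 (SD, n = 3 each). GALNT11 fell by 1.15 (SE 0.18), or 2.21-fold, in SCS against No Storage (limma adjusted p = 0.0486, 95% interval -1.54 to -0.75). NEVKP differed from No Storage by -0.36 (limma adjusted p = 0.582), by -0.54 without No Storage replicate 2 and by -0.23 without NEVKP replicate 2. Between NEVKP and SCS the difference was 0.79, with NEVKP 1.73-fold higher (interval 0.39 to 1.19), and it did not pass (limma adjusted p = 0.520).

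Both calls lay close to the threshold. When each of the 9 arrays was left out in turn, SIAE and GALNT11 kept an adjusted p under 0.05 only without SCS replicate 3 or NEVKP replicate 2. Each of the other 7 arrays ended both calls when it was the one omitted (No Storage replicate 1, 2 or 3, SCS replicate 1 or 2, NEVKP replicate 1 or 3), with an adjusted p of 0.0570 to 0.184 for SIAE and 0.0601 to 0.203 for GALNT11 in limma. The size changed less: SIAE stayed between -2.09 and -1.57 and GALNT11 between -1.33 and -1.04.

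**Figure D2:**
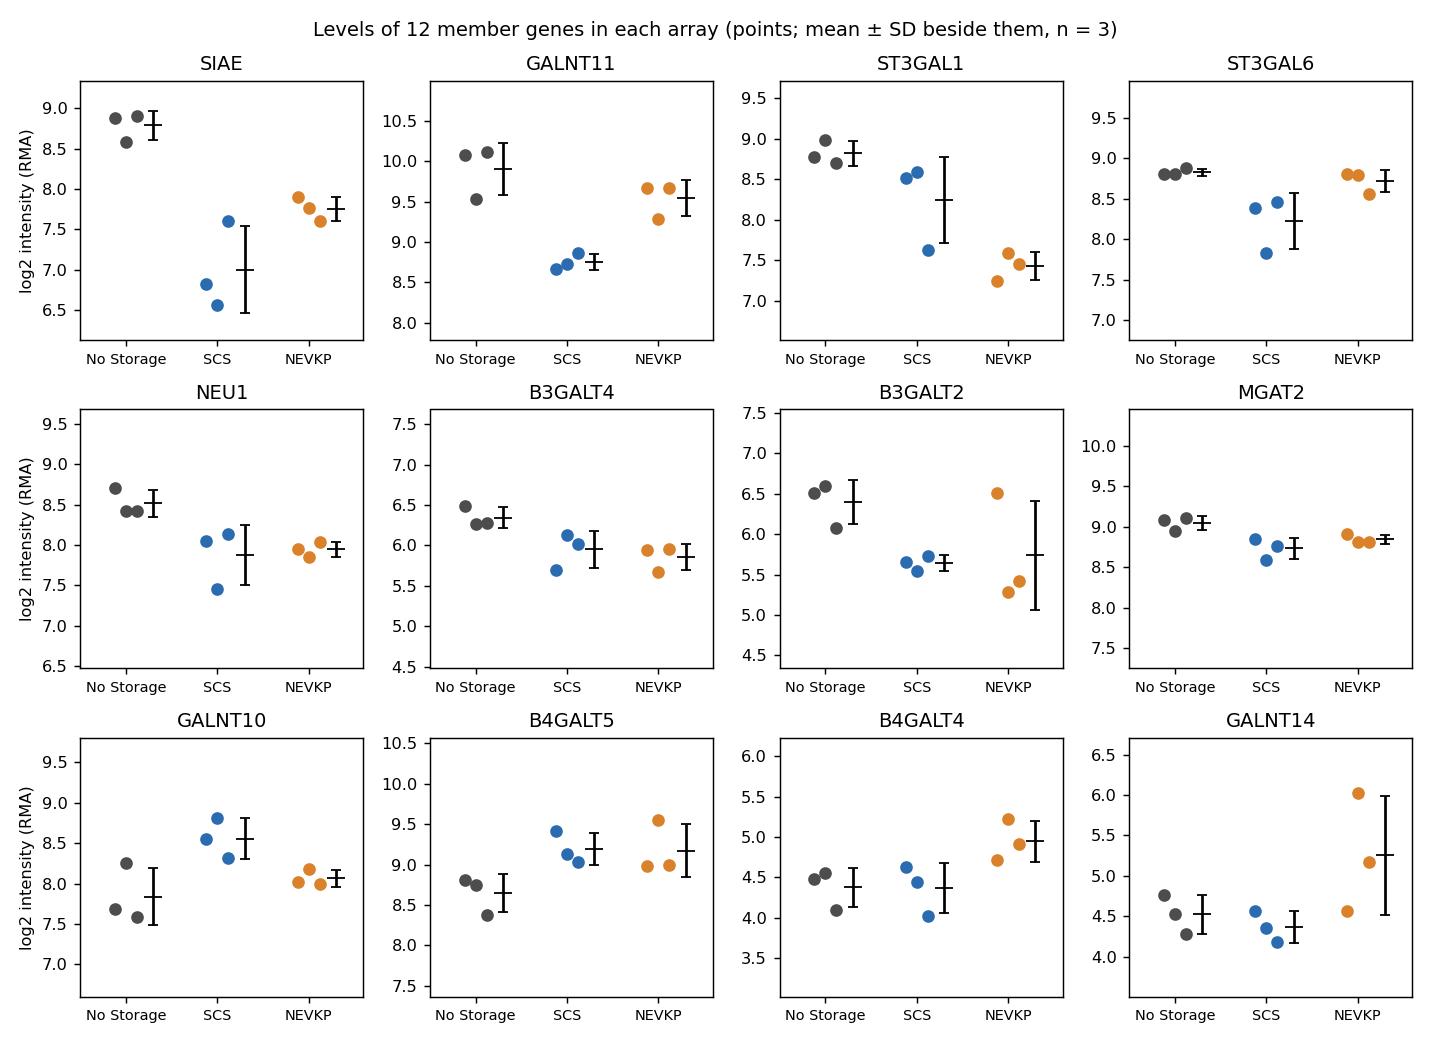
Log2 RMA level of 12 genes on each of the 9 arrays, grouped as No Storage, SCS and NEVKP, with 1 point per array and the mean ± SD (n = 3) beside them. Each panel spans the same range on the log2 axis, centred on its own gene. The SCS points of SIAE and GALNT11 lie below all No Storage points, and ST3GAL1 is lowest in NEVKP.

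Markers of tubule cells also lay lower in SCS kidneys, though none of them passed the adjusted threshold. The mean level of 13 of 20 listed proximal tubule genes was 10.78 to 10.84 in the No Storage arrays, 9.87 to 10.49 in SCS and 9.77 to 10.74 in NEVKP. The low end in NEVKP was replicate 2, while replicates 1 and 3 were at 10.74 and 10.50. For 8 of 14 listed thick limb and distal tubule genes the mean level was 9.55 to 9.89 in No Storage, 8.26 to 9.24 in SCS and 9.47 to 9.61 in NEVKP. For 15 of 18 listed collecting duct genes it was 8.11 to 8.19, 7.35 to 7.82 and 7.78 to 7.87. At an unadjusted p under 0.05, 6 of 13 proximal (46.2%), 4 of 8 thick limb and distal and 8 of 15 collecting duct genes (53.3%) were lower in SCS than in No Storage, against 7.79% of all probe sets, while 1, 0 and 2 were higher. In NEVKP against No Storage 3 proximal (23.1%), 0 thick limb and distal and 6 collecting duct genes (40.0%) were lower, against 4.40%, and 0 were higher. Of these markers only AQP4 of the collecting duct list was dim. The part of these markers in the SIAE and GALNT11 results was not tested, and in a biopsy fewer cells of a type and less RNA per cell cannot be told apart.

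**Figure D3:**
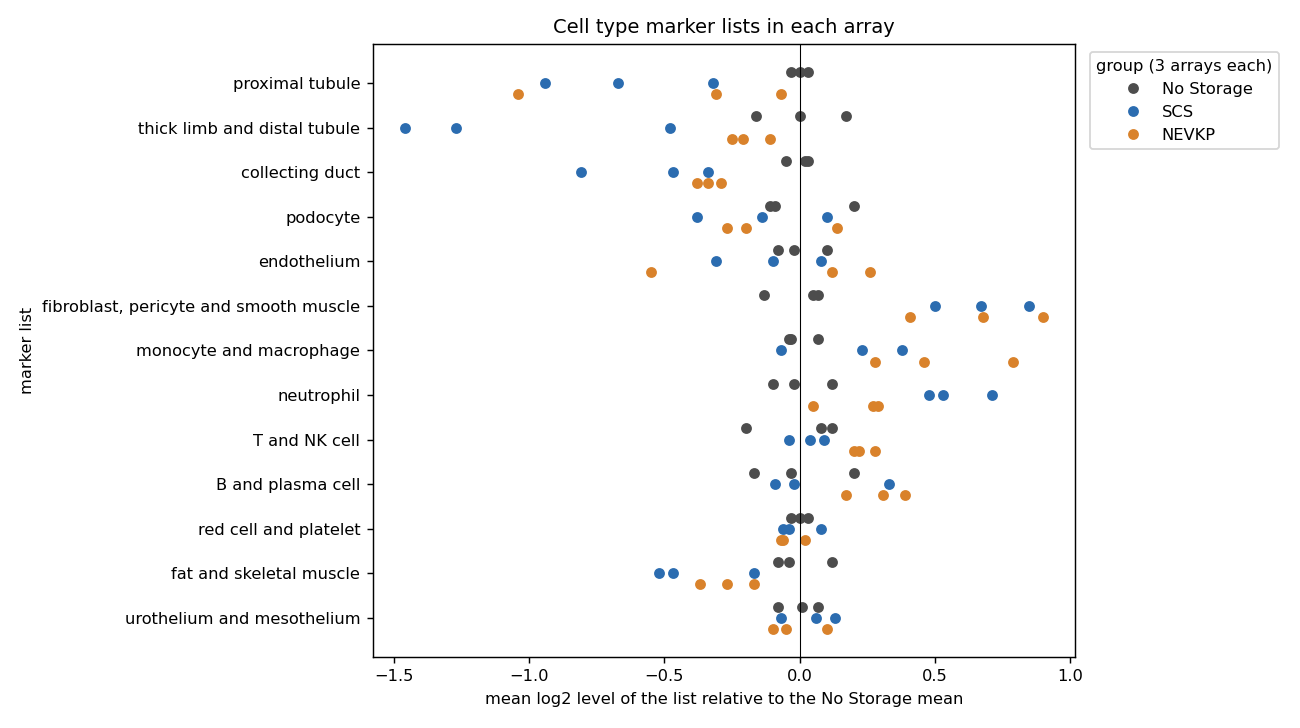
Mean log2 level of each cell type marker list on each array, relative to the mean of the No Storage arrays. The thick limb and distal tubule list lies at -1.46 to -0.48 in SCS against -0.16 to 0.17 in No Storage. The fibroblast, pericyte and smooth muscle list lies higher in SCS and NEVKP than in No Storage.

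Sialidases cut sialic acid from the chains. NEU1, the lysosomal one, read 8.70, 8.42 and 8.42 in No Storage. It read 8.05, 7.45 and 8.13 in SCS and 7.95, 7.85 and 8.04 in NEVKP. All 6 arrays of preserved kidneys lay below the 3 No Storage arrays, and SCS and NEVKP overlapped. NEU1 differed from No Storage by -0.63 in SCS (limma adjusted p = 0.142) and by -0.57 in NEVKP (limma adjusted p = 0.444). Between NEVKP and SCS the difference was 0.07, with an interval of -0.34 to 0.47. NEU3, the sialidase of gangliosides at the plasma membrane, differed by -0.17 in SCS and -0.13 in NEVKP against No Storage. NEU2, a cytosolic sialidase, differed by 0.03 and -0.15.

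The 4 alpha2,3-sialyltransferases differed by -0.61 to 0.33 in SCS and by -1.39 to 0.33 in NEVKP against No Storage. ST3GAL1, which caps the short galactose-bearing chains of O-glycans, read 8.77, 8.99 and 8.70 in No Storage. It read 8.52, 8.59 and 7.63 in SCS and 7.24, 7.59 and 7.45 in NEVKP. The 3 groups did not overlap, with No Storage highest and NEVKP lowest, although the third SCS array lay close to the NEVKP range. The ST3GAL1 difference between NEVKP and No Storage was -1.39 (SE 0.23), or 2.63-fold lower, with an unadjusted p of 1.37e-04 and an adjusted p of 0.299 in limma (interval -1.92 to -0.87). Against SCS it was -0.82, or 1.76-fold lower (limma adjusted p = 0.563). SCS differed from No Storage by -0.57 (limma adjusted p = 0.279), and by -0.27 without SCS replicate 3.

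ST3GAL6, which caps lactosamine chains and takes part in making selectin ligands, was lowest in SCS instead of NEVKP. It read 8.80, 8.80 and 8.88 in No Storage, 8.38, 7.83 and 8.46 in SCS, and 8.81, 8.79 and 8.56 in NEVKP. The SCS arrays lay below all the others. The difference was -0.61 in SCS against No Storage (limma adjusted p = 0.138), -0.11 in NEVKP against No Storage (limma adjusted p = 0.892) and 0.50 in NEVKP against SCS (limma adjusted p = 0.599), the last being 0.30 without SCS replicate 2. ST3GAL4, which acts on similar chains, was 0.33 higher than No Storage in both preserved groups, with limma adjusted p of 0.252 for SCS and 0.511 for NEVKP. ST3GAL5, the synthase of the simplest ganglioside, differed by -0.25 in SCS and 0.10 in NEVKP.

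None of the alpha2,6- and alpha2,8-sialyltransferases reached an unadjusted p of 0.05 in any comparison. The 5 alpha2,6 genes, ST6GAL2, ST6GALNAC1, ST6GALNAC2, ST6GALNAC4 and ST6GALNAC6, differed by -0.23 to 0.07 in SCS and by -0.02 to 0.25 in NEVKP against No Storage. The 5 alpha2,8 genes, which extend one sialic acid with another, differed by -0.06 to 0.21 and by -0.12 to 0.34. Their spread was partly that of single arrays. ST8SIA1, the synthase of the ganglioside GD3, read 6.19, 7.44 and 6.48 in NEVKP, and ST6GALNAC2 read 6.74, 7.84 and 6.65. In both genes NEVKP replicate 2 stood apart from the rest of its group. ST8SIA4, a polysialyltransferase, read 6.85, 6.30 and 7.14 in No Storage, 6.83, 6.40 and 6.94 in SCS, and 7.22, 7.22 and 6.76 in NEVKP, so its groups overlapped.

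The fucosyltransferases were also without an unadjusted p under 0.05. FUT8, which adds the core fucose of N-glycans, read 6.92, 6.91 and 6.92 in No Storage. It read 7.00, 6.93 and 6.86 in SCS and 6.98, 7.27 and 7.15 in NEVKP. The NEVKP arrays lay above the No Storage arrays, with a difference in means of 0.21 (limma adjusted p = 0.624). SCS differed from No Storage by 0.01 with an interval of -0.25 to 0.27. FUT1 and FUT2, which make the H antigen, FUT4, which makes Lewis-type fucose linkages, and FUT11 differed from No Storage by -0.25 to 0.19 in SCS and by -0.08 to 0.26 in NEVKP.

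Of the 5 beta1,4-galactosyltransferases, B4GALT5, a lactosylceramide synthase that opens the ganglioside pathway, was higher in both preserved groups. It read 8.81, 8.75 and 8.38 in No Storage, 9.42, 9.13 and 9.03 in SCS, and 8.98, 9.55 and 8.99 in NEVKP. No array of SCS or NEVKP overlapped those of No Storage. The differences were 0.55 for SCS (limma adjusted p = 0.204) and 0.53 for NEVKP (limma adjusted p = 0.472; 0.34 without NEVKP replicate 2), and NEVKP minus SCS was -0.02 with an interval of -0.45 to 0.40. B4GALT4 separated NEVKP from the rest, with 4.72, 5.22 and 4.91 in NEVKP against 4.48, 4.55 and 4.10 in No Storage and 4.63, 4.44 and 4.03 in SCS. Its difference was 0.57 against No Storage (limma adjusted p = 0.456) and 0.58 against SCS (limma adjusted p = 0.599). B4GALT1, the main galactosyltransferase of N-glycan antennae, read 8.50, 8.28 and 8.41 in No Storage, 9.02, 8.60 and 8.56 in SCS, and 8.50, 8.66 and 8.36 in NEVKP. SCS lay above No Storage by 0.33 (limma adjusted p = 0.339), or by 0.18 without SCS replicate 1, and NEVKP by 0.11, or 0.03 to 0.18 without single arrays.

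Markers of fibroblasts, pericytes and smooth muscle lay higher in SCS and NEVKP, though none passed the adjusted threshold: the mean level of 12 of 14 listed genes was 8.75 to 8.95 in No Storage, 9.37 to 9.73 in SCS and 9.28 to 9.78 in NEVKP. At an unadjusted p under 0.05, 8 of the 12 (66.7%) were higher than No Storage in each group, against 7.75% and 4.67% of all probe sets, and 0 were lower. The monocyte and macrophage list, with 15 of 18 genes, lay at 6.80 to 6.91, 6.78 to 7.22 and 7.12 to 7.63. By the same criterion 4 genes were higher (26.7%) and 1 lower (6.67%, against 7.79% of all probe sets) in SCS. In NEVKP 7 were higher (46.7%) and 0 lower (against 4.40%). The list was split in SCS, where 12 of the 15 genes had a higher mean than in No Storage and 3 a lower one. The lower ones were C1QA, C1QB and C1QC, which differed by -0.60, -0.63 and -0.65. The neutrophil list, with 7 of 13 genes and with S100A8, S100A9 and MPO dim, lay at 4.17 to 4.39, 4.75 to 4.98 and 4.31 to 4.55. Of its genes 3 were higher in SCS (42.9%, against 7.75%) and 0 in NEVKP (against 4.67%), and 0 were lower in either. No gene of these lists passed the adjusted threshold, and their part in the B4GALT, GALNT and other results was not tested.

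In the group of beta1,3-galactosyltransferases and beta1,3-N-acetylglucosaminyltransferases, B3GALT4, which makes the ganglioside GM1, read 6.49, 6.26 and 6.28 in No Storage. It read 5.70, 6.13 and 6.02 in SCS and 5.94, 5.67 and 5.95 in NEVKP, all below the No Storage arrays. The differences were -0.39 (limma adjusted p = 0.244) and -0.49 (limma adjusted p = 0.428). B3GALT2, a galactosyltransferase of N-acetylglucosamine ends, read 6.51, 6.60 and 6.08 in No Storage, 5.66, 5.54 and 5.73 in SCS, and 6.51, 5.28 and 5.42 in NEVKP. Its SCS arrays lay below No Storage, and the difference in means of -0.75 did not pass (limma adjusted p = 0.244). NEVKP differed from No Storage by -0.66 (limma adjusted p = 0.537), with NEVKP replicate 1 in the No Storage range. That difference was -1.05 without NEVKP replicate 1 and -0.43 without NEVKP replicate 2. The dim B3GNT4 differed by -0.36 in NEVKP against No Storage (limma adjusted p = 0.456). B3GALT1 lay higher by 0.57 in NEVKP than in No Storage (limma adjusted p = 0.567) and by 0.24 without NEVKP replicate 2, with NEVKP replicate 2 at 5.27 and the others at 4.29 and 4.26. The whole group of 10 ran from -0.75 to 0.24 in SCS and from -0.66 to 0.57 in NEVKP, with medians of -0.01 and 0.01.

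**Figure D4:**
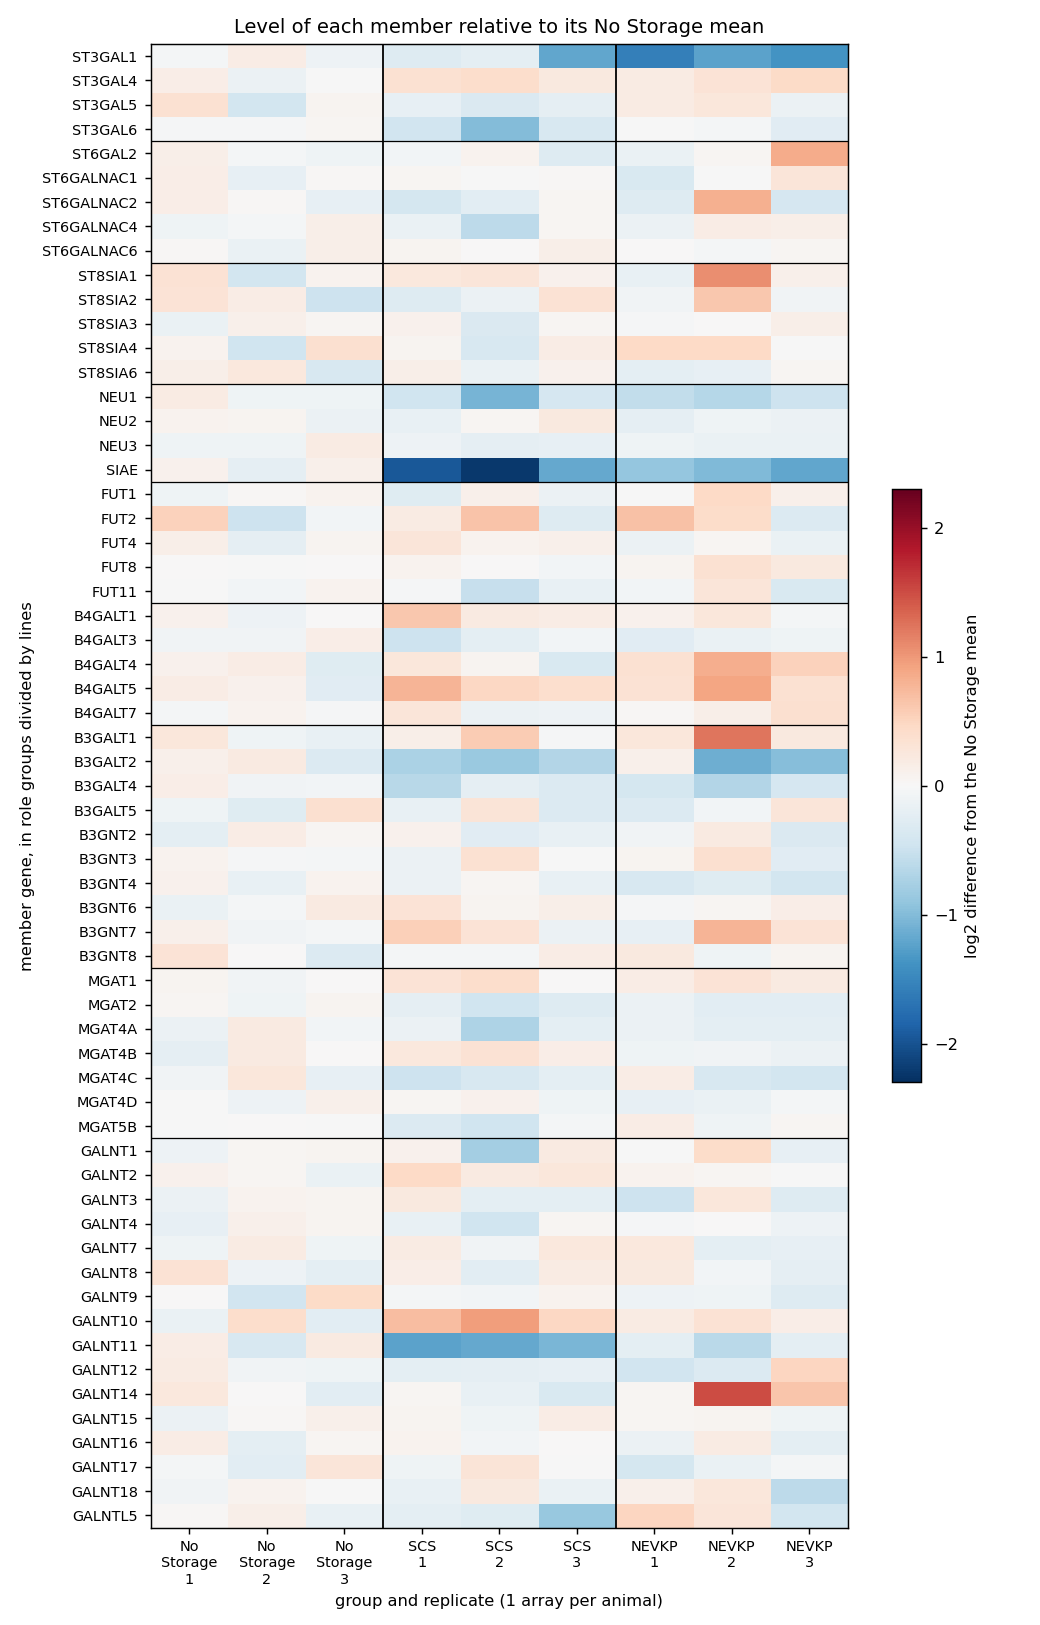
Log2 level of each of the 61 genes on each array minus its mean in the No Storage arrays, with genes ordered by enzyme group. SIAE, GALNT11, NEU1 and ST3GAL6 are below the No Storage mean in all SCS arrays, and B4GALT5 and GALNT10 are above it.

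The MGAT enzymes had a median difference of -0.27 in SCS, -0.13 in NEVKP against No Storage and 0.11 between NEVKP and SCS. MGAT1 adds the N-acetylglucosamine that opens hybrid and complex N-glycans. It read 8.03, 7.88 and 7.97 in No Storage, 8.27, 8.37 and 7.96 in SCS, and 8.13, 8.27 and 8.16 in NEVKP. It differed by 0.24 in SCS (limma adjusted p = 0.435) and 0.23 in NEVKP (limma adjusted p = 0.646). MGAT2, which opens the other main antenna, went the other way, from 9.09, 8.95 and 9.11 in No Storage to 8.85, 8.59 and 8.76 in SCS and 8.91, 8.81 and 8.81 in NEVKP. Its arrays did not overlap those of No Storage in either group, and the differences were -0.32 (limma adjusted p = 0.239) and -0.21 (limma adjusted p = 0.641). MGAT4B, a further branching enzyme, read 8.54, 8.64 and 8.45 in SCS and 8.21, 8.22 and 8.16 in NEVKP, a difference of -0.35 for NEVKP minus SCS (limma adjusted p = 0.648). Its relative MGAT4A differed from No Storage by -0.36 in SCS and -0.19 in NEVKP. MGAT5B, which branches O-mannosyl glycans, differed by 0.31 between NEVKP and SCS (limma adjusted p = 0.657).

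The 16 GALNT genes did not move as a family: the median difference was -0.02 in SCS, -0.06 in NEVKP against No Storage and -0.04 between NEVKP and SCS. GALNT10 was nearest to the reverse of GALNT11. It read 7.68, 8.25 and 7.59 in No Storage, 8.55, 8.81 and 8.31 in SCS, and 8.02, 8.18 and 7.99 in NEVKP, so SCS lay above both other groups. The difference was 0.72, or 1.65-fold, between SCS and No Storage (limma adjusted p = 0.123) and -0.50 between NEVKP and SCS (limma adjusted p = 0.648). GALNT2, a broadly expressed starter of O-glycans, read 7.02, 6.98 and 6.78 in No Storage, 7.38, 7.13 and 7.19 in SCS, and 7.00, 6.97 and 6.91 in NEVKP. It lay higher in SCS than in No Storage by 0.31 (limma adjusted p = 0.269) and differed by -0.27 between NEVKP and SCS (limma adjusted p = 0.668). GALNT14 read 4.56, 6.03 and 5.17 in NEVKP against 4.57, 4.35 and 4.18 in SCS, a difference of 0.88 (limma adjusted p = 0.602) that was 0.50 without NEVKP replicate 2. The dim GALNTL5 differed by 0.58 between NEVKP and SCS (limma adjusted p = 0.655), and by 0.37 without SCS replicate 3. The other 11 GALNT genes reached no unadjusted p of 0.05 in any comparison.

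Other genes of the pathway were taken from 6 lists, of which 90 of 141 genes had a probe set with a single symbol. None passed the adjusted threshold in limma. At an unadjusted p under 0.05, 6 were higher (6.67%, against 7.75% of all probe sets) and 13 lower (14.4%, against 7.79%) in SCS than in No Storage. In NEVKP against No Storage 5 were higher (5.56%, against 4.67%) and 8 lower (8.89%, against 4.40%). In NEVKP against SCS 8 were higher (8.89%, against 3.80%) and 1 lower (1.11%, against 3.70%). Their median differences were -0.08, -0.02 and 0.04.

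In the supply of sialic acid, 14 of 16 genes were measured. NANS, which makes the sialic acid backbone, read 6.88, 6.99 and 6.90 in No Storage, 7.64, 7.51 and 7.36 in SCS, and 6.94, 7.52 and 7.10 in NEVKP. The SCS arrays lay above No Storage, and the difference in means of 0.58 did not pass. SLC17A5, which carries free sialic acid out of lysosomes, differed by -0.58 in SCS (-0.33 without SCS replicate 2) and -0.39 in NEVKP against No Storage. RENBP differed by -0.63 in SCS and -0.32 in NEVKP. CMAH converts activated acetyl sialic acid to its glycolyl form. It read 5.06, 5.33 and 5.62 in No Storage, 5.56, 5.58 and 5.40 in SCS, and 6.02, 6.06 and 6.12 in NEVKP. The NEVKP arrays lay above all 6 others, with a difference in means of 0.73 against No Storage (limma adjusted p = 0.331) and 0.55 against SCS. NPL, a sialic acid lyase, differed by -0.67 in SCS and by -0.73 in NEVKP against No Storage, the latter -0.45 without NEVKP replicate 2. PGM3 differed by -0.25 between NEVKP and SCS, or -0.15 without SCS replicate 1.

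Of the nucleotide sugar genes, 15 of 24 were measured. PMM1, a phosphomannomutase, differed by -0.69 in SCS and -0.53 in NEVKP against No Storage. SLC35D1, a transporter of nucleotide sugars into the endoplasmic reticulum, differed by -0.70 in SCS and -0.98 in NEVKP. UXS1, which makes UDP-xylose, differed by 0.37 and 0.28. The fucose salvage gene FPGT differed by -0.47 in SCS and by 0.45 between NEVKP and SCS, and without SCS replicate 2 by -0.29 and 0.27.

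In the assembly and trimming of N-glycans, 22 of 30 genes were measured. At an unadjusted p under 0.05, 3 were lower in SCS than in No Storage (13.6%, against 7.79% of all probe sets) and 0 higher (against 7.75%). In NEVKP against No Storage 2 were lower (9.09%, against 4.40%) and 0 higher (against 4.67%). The Golgi mannosidase MAN1C1 differed by -0.54 in SCS and -0.59 in NEVKP, the latter -0.35 without NEVKP replicate 2. ALG1, a mannosyltransferase of the lipid-linked precursor, differed by -0.36 and -0.27. MAN1A2 differed by -0.46 in SCS, or -0.24 without SCS replicate 2, and by -0.26 in NEVKP. MAN2A1 differed by -0.33 in SCS and -0.39 in NEVKP. Of the O-glycan and glycolipid genes, 13 of 25 were measured. GCNT4, an enzyme that branches O-glycans, read 5.11, 5.28 and 5.42 in SCS, below both No Storage (5.83, 5.75 and 6.26) and NEVKP (5.74, 6.18 and 5.90). It differed by -0.68 in SCS against No Storage and by 0.67 in NEVKP against SCS (limma adjusted p = 0.520).

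Over 11 of 21 genes, the lysosomal breakdown list had a median difference of -0.25 in SCS and -0.13 in NEVKP against No Storage. Not all of its genes code for lysosomal enzymes, among them NGLY1, which differed by -0.08 in SCS and 0.07 in NEVKP. CTSA, the protective protein that holds NEU1 in an active complex, read 11.31, 11.09 and 11.53 in No Storage, 10.69, 10.89 and 11.01 in SCS, and 10.84, 10.64 and 10.46 in NEVKP. All arrays of preserved kidneys lay below No Storage, as they did for NEU1. The means differed by -0.45 in SCS and -0.66 in NEVKP against No Storage, neither of which passed (limma adjusted p = 0.373 for NEVKP). HEXA, a hexosaminidase subunit, differed by -0.53 and -0.41, and AGA, which cleaves the bond between glycan and asparagine, by -0.51 in SCS. GM2A, the activator of ganglioside breakdown, went the other way in NEVKP, by 0.55 against No Storage and 0.40 against SCS.

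Of the lectins and their carriers, 15 of 25 were measured. CD44, a hyaluronan receptor that also carries selectin ligands, read 7.59, 8.03 and 7.06 in No Storage, 8.71, 8.94 and 8.39 in SCS, and 8.17, 8.32 and 7.88 in NEVKP. The SCS arrays lay above all No Storage arrays, with a difference in means of 1.12 (limma adjusted p = 0.0801). NEVKP differed from No Storage by 0.57 with overlapping arrays, or by 0.32 without No Storage replicate 3. SELE, the endothelial selectin that binds sialylated and fucosylated chains, differed by 1.97 in NEVKP against No Storage, a value that rested on 1 array: NEVKP read 4.63, 9.18 and 4.48, and without replicate 2 the difference was 0.43. GLG1, a Golgi ligand of that selectin, differed by -0.35 in SCS, or -0.19 without SCS replicate 2, and -0.33 in NEVKP. MUC1, a mucin carrying O-glycans, differed by 0.41 between NEVKP and SCS, or 0.24 without NEVKP replicate 2.

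**Figure D5:**
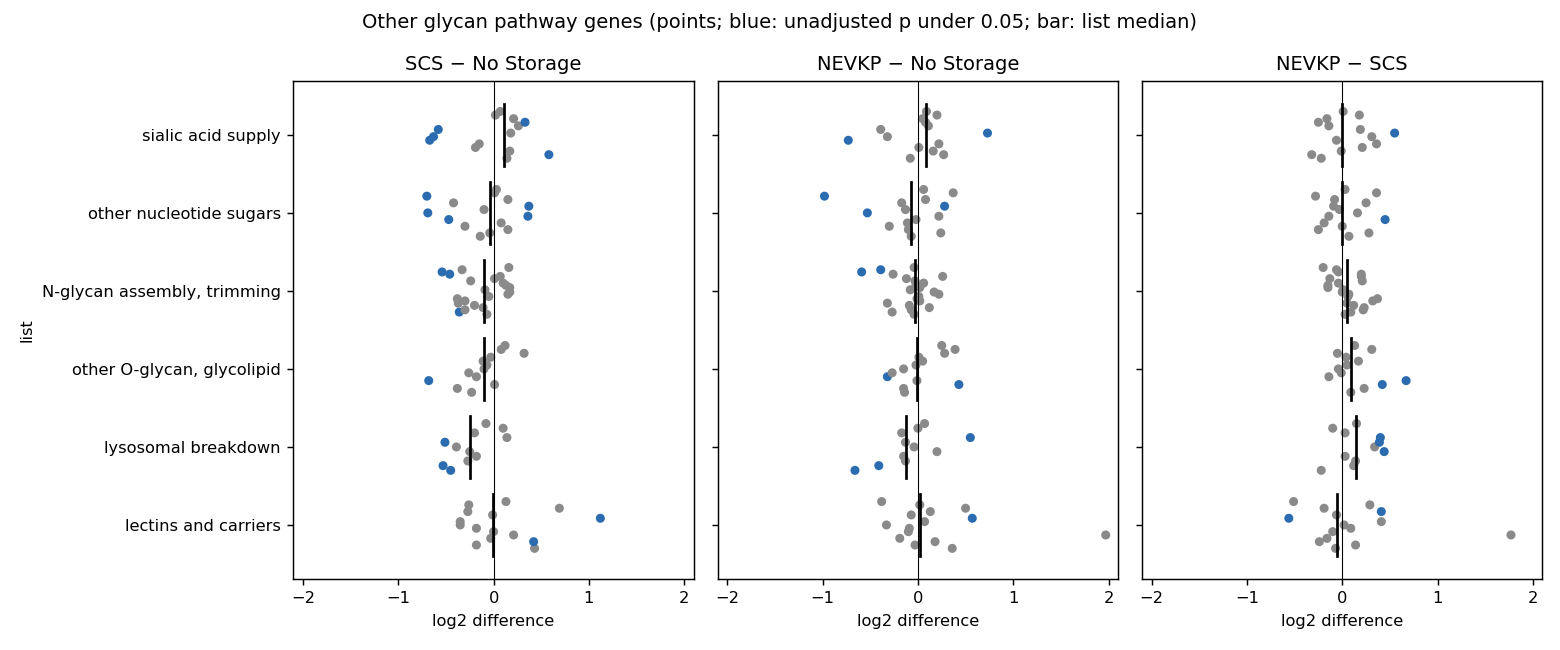
Log2 difference of each measured gene of the 6 pathway lists in the 3 comparisons, with bars at the median of each list and blue points at an unadjusted p under 0.05. The lysosomal list has its median at -0.25 in SCS against No Storage, and no gene of any list passed the adjusted threshold.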

How the data were processed

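Gene expression was measured on 9 Affymetrix arrays, 3 per group, each from a different animal. The authors deposited log2 values made with RMA, per the submitters' processing notes, which also name limma 3.34.14; the sources used here do not state the array type, a genome build or any filter. The values were used as deposited. Of 19124 probe sets, 13323 had 1 symbol in the array annotation, 357 several and 5444 none; the probe set of highest mean stood for a gene. Of 60 genes with an NCBI Gene ID, 59 were found in RefSeq, all under the same symbol. The fit used limma 3.58.1 in R 4.3.3 (lmFit, eBayes) on all probe sets and arrays, with group as the only factor; it was tested on simulated data. The number of arrays limits the precision.

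Members and lists were chosen with earlier results of these data known. Genes were picked for naming if past the threshold, or among up to 6 higher and 6 lower genes of smallest p in a comparison. Also picked were SIAE, NEU1, ST3GAL1, B4GALT1, FUT8 and MGAT1, and up to 3 genes of smallest p in a pathway list. Not every gene so picked is described: POMT1, GCNT3, SIGLEC5 and MANBA are among those left out. Some genes not picked are described, such as NEU2, NEU3, ST3GAL5, MGAT4A and MGAT5B. The genes described are therefore a selection. Genes of highest and lowest level were not named, since levels of different probe sets are not comparable. Alternatives were a replicate block, another variance prior, array weights, dim probe sets left out, centred arrays, averaged probe sets, the compared groups alone and each array left out. Equal replicate numbers were not taken as pairs, since the labels do not say that they pair animals.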

Additional observations from a re-analysis of the deposited data

How the results depend on the processing

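The 18 alternatives gave 1795 values for 100 results on single genes. In 1764 the direction and the side of the threshold were those reported, 18 were weaker, 1 stronger and 12 reversed, and 96 of the 100 results kept their direction throughout. All 18 weaker values belonged to the only 2 calls: SIAE and GALNT11 in SCS against No Storage each passed in only 9 of 18 alternatives. Most of the unchanged values came from genes that did not pass in any setting. The count of 2 genes in SCS against No Storage was 0 with the compared groups alone (limma adjusted p 0.0549 for SIAE and 0.0552 for GALNT11) and 0 without SCS replicate 2 and NEVKP replicate 2 together (0.0887 for both), a setting chosen after seeing the data. SCS replicate 2 and NEVKP replicate 2 had the lowest limma array weights, 0.46 and 0.57, with 0.93 to 1.62 for the other arrays. Leaving out single arrays gave counts from 0 to 2. With the replicate number as a block the count was 2 (limma adjusted p 0.0494 for both genes), and CD44 had 0.0494. Same-numbered arrays had correlations of deviations from their group means between -0.14 and 0.13, with 1 of 9 pairs over 0.1. The 18 other pairs across groups had -0.15 to 0.17, and the numbers were not taken as pairs. The counts for NEVKP against No Storage and NEVKP against SCS were 0 in all alternatives. The F test count was 0 except without SCS replicate 3, where it was 2 (ST3GAL1 and SIAE). Leaving out single arrays therefore gave an F count from 0 to 2.

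Over all probe sets, SCS against No Storage gave 31 calls, and 27 with the replicate block, 83 with the trended and robust prior, 93 with array weights, 82 without the dimmest 25%, 49 with centred arrays, 48 with averaged probe sets and 25 with the compared groups alone. It gave 147 without SCS replicate 3 and 158 without NEVKP replicate 2, but only 0 to 2 without any 1 of the other 7 arrays and 0 without SCS replicate 2 and NEVKP replicate 2. The cause of these differences was not tested. Reversed values were all small. FUT8 in SCS against No Storage was -0.04 with centred arrays, and -0.02 to 0.05 without single arrays. In NEVKP against SCS, NEU1 was -0.03 with array weights, -0.10 without SCS replicate 2 and NEVKP replicate 2, and -0.15 to 0.19 without single arrays. MGAT1 was 0.03 with array weights, 0.03 without the same 2 arrays, and -0.13 to 0.07 without single arrays. ALG10 was -0.06 without those 2 arrays, 0.32 with all, and 0.09 to 0.43 without single arrays. In these results too the cause was not tested.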
